A study of Mus musculus with 6 samples.

Results

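Conventional myosin heavy chains, the motor subunits of muscle and non-muscle myosin II, were followed in differentiating C2C12 cells. The set held 10 named genes of 17558 in the deposited table: 7 sarcomeric genes (Myh1, Myh2, Myh3, Myh4, Myh6, Myh7, Myh8) and 3 non-muscle genes (Myh9, Myh10, Myh14). They were taken by symbol, and the values of all RefSeq transcripts of a gene were summed. All 10 passed the filter on low counts, Myh14 only through shScr, the group where it was high. Myh14 and, in the shPkm2-labelled libraries, Myh2 and Myh4 rested on few or no counts.

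C2C12 is a mouse myoblast line whose cells fuse into multinucleated myotubes once serum is lowered. RNA was sequenced in 6 libraries, all from cells kept for 48 h in differentiation medium with horse serum and an insulin, transferrin and selenium supplement. The groups of 2 libraries each stably carried a scrambled hairpin (shScr, given the genotype WT), a hairpin against the Pkm1 isoform of the pyruvate kinase gene Pkm (shPkm1) or a hairpin against its Pkm2 isoform (shPkm2). Nothing in the labels says that libraries of a group came from separate cultures or clones, so the p-values measure only the spread between these libraries.

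A myosin II molecule has a pair of heavy chains, each with a motor head that binds actin and hydrolyses ATP and a long coiled tail, and pairs of essential and regulatory light chains. Sarcomeric heavy chains assemble into the thick filaments of striated muscle, and the chain present sets the speed of contraction. In developing skeletal muscle the embryonic (Myh3) and slow (Myh7) chains are made from the first fibres on, the perinatal chain (Myh8) comes next, and the adult fast chains (Myh1, Myh2, Myh4) follow. Non-muscle heavy chains form small contractile filaments in nearly all cells, where they act in adhesion, migration and cell division.

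Libraries held between 18216904 and 19796021 estimated counts, and the pair labelled shScr differed most within itself (chi-square per degree of freedom 30.8, against 5.94 in shPkm1 and 6.66 in shPkm2). The Pkm1 isoform stood at 567.3 ± 30.4 TPM (transcript level scaled to length and depth; SD, n = 2) in shScr, and at 230.5 ± 17.3 (shPkm1) and 254.2 ± 0.092 (shPkm2) with the Pkm hairpins. The Pkm2 isoform stood at 1295 ± 314, 1329 ± 71.7 and 2665 ± 49.6 TPM. In an edgeR fit of transcripts its log2 fold change against shScr was -0.31 in shPkm1 and 0.63 in the shPkm2-labelled libraries. Neither passed (adjusted p 0.322 and 0.0657). The Pkm2 isoform was thus not lower in the group named for it, which is therefore named only by its label here. All 5 myoblast markers (Myod1, Myf5, Pax7, Des, Cdh15), defining genes of the labelled cell type, stood above the floor of 3 counts in every group. Their summed level was 2866 to 3045 TPM in shScr, 2556 to 2708 in shPkm1 and 1000 to 1090 in the shPkm2-labelled libraries. Most of that sum was Des, and Myf5 went the other way in the shPkm2-labelled libraries (log2 fold change 1.74 against shScr, adjusted p 9.34e-09 by edgeR), while the 4 others fell. The 8 myotube markers summed to 21540 to 28840, 10040 to 10830 and 243.6 to 247.1 TPM, and the 5 proliferation markers to 95.4 to 139.6, 267.7 to 268.3 and 757.1 to 818.8 TPM. In bulk RNA, fewer myotubes and less myosin RNA per myotube cannot be told apart, and the part of these markers in the results on myosins was not tested.

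The sarcomeric genes lie in clusters. On GRCm38 chromosome 11, all on the plus strand, lie Myh3 (67078273 to 67102291), Myh2 (67171027 to 67197517), Myh1 (67200102 to 67224577), Myh4 (67237812 to 67260447) and Myh8 (67277124 to 67308634), over 230.4 kb. Myh6 (54941921 to 54968017) and Myh7 (54970684 to 54994626) lie 2.7 kb apart on the minus strand of chromosome 14. Myh10 is also on chromosome 11 (68691915 to 68816626), Myh9 is on chromosome 15 (77760585 to 77842175) and Myh14 on chromosome 7 (44605803 to 44670872).

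RefSeq promoter windows (GRCm38.p6, 250 bases before to 50 after a start site) were found for all 10 genes. The 3 adult fast genes and Myh8, neighbours in the cluster, are shown because their windows share a run of 14 bases, TTCTAATTATATCC. On either strand it was found in 4 of 32851 windows (0.0122%), those of Myh1, Myh2, Myh4 and Myh8. Capitals mark that run and, where present, the MEF2 site, the A/T-rich sequence named for the MEF2 factors. The stretches are chr11:67199880-67199971, chr11:67170848-67170931, chr11:67237619-67237683 and chr11:67277014-67277099, all on the plus strand.
Myh1: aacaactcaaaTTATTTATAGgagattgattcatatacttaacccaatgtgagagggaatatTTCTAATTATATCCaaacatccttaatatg
Myh2: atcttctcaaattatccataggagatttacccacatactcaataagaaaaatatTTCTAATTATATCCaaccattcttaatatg
Myh4: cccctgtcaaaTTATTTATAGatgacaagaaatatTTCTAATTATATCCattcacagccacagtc
Myh8: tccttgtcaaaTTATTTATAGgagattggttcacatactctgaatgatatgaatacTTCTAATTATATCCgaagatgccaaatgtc
Counted from the start site, the shared run begins at -160 in Myh1, -125 in Myh2, -158 in Myh4 and -54 in Myh8. A MEF2 site was matched in Myh1, Myh4 and Myh8 and in 3.19% of all windows. The CArG box, the site named for serum response factor, was matched in Myh4 and in 1.63% of windows. The E-box CANNTG was in 8 of the 10 genes, all but Myh1 and Myh2, and in 72.3% of windows. TATAAA was in 7, with the non-muscle Myh9 among them and Myh7 not, and in 13.6%. CATTCC, the letters of the muscle CAT element, was in 5, with the non-muscle Myh10 among them, and in 14.7%. A match describes letters only, and CArG and MEF2 matches can overlap A/T-rich runs such as TATAAA.

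Sarcomeric and non-muscle promoters also differ in base composition. Myh3, the sarcomeric gene with the highest level, and the non-muscle genes Myh9 and Myh10 are shown over the 100 bases before the start site, at chr11:67078200-67078299 (plus strand), chr15:77842176-77842275 (minus strand) and chr11:68691815-68691914 (plus strand). The start site of the Myh3 window lies inside the gene span given above, which begins at 67078273, so part of the Myh3 stretch does too. Capitals mark TATAAA in Myh3 and each CG in the non-muscle genes.
Myh3: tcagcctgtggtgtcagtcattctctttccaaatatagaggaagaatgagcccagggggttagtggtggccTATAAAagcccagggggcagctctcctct
Myh9: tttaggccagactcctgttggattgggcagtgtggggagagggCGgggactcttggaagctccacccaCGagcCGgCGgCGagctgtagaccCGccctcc
Myh10: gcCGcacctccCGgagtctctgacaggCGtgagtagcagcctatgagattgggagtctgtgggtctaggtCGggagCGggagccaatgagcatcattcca
Over the full windows of 300 bases the 3 non-muscle genes held 18 or 19 CG pairs each and 62.7% to 64.7% G+C. The sarcomeric genes held 1 to 9 CG pairs, with G+C from 38.0% in Myh1 to 57.3% in Myh6. The median of all windows was 7 CG pairs and 52.7% G+C.

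**Figure D1:**
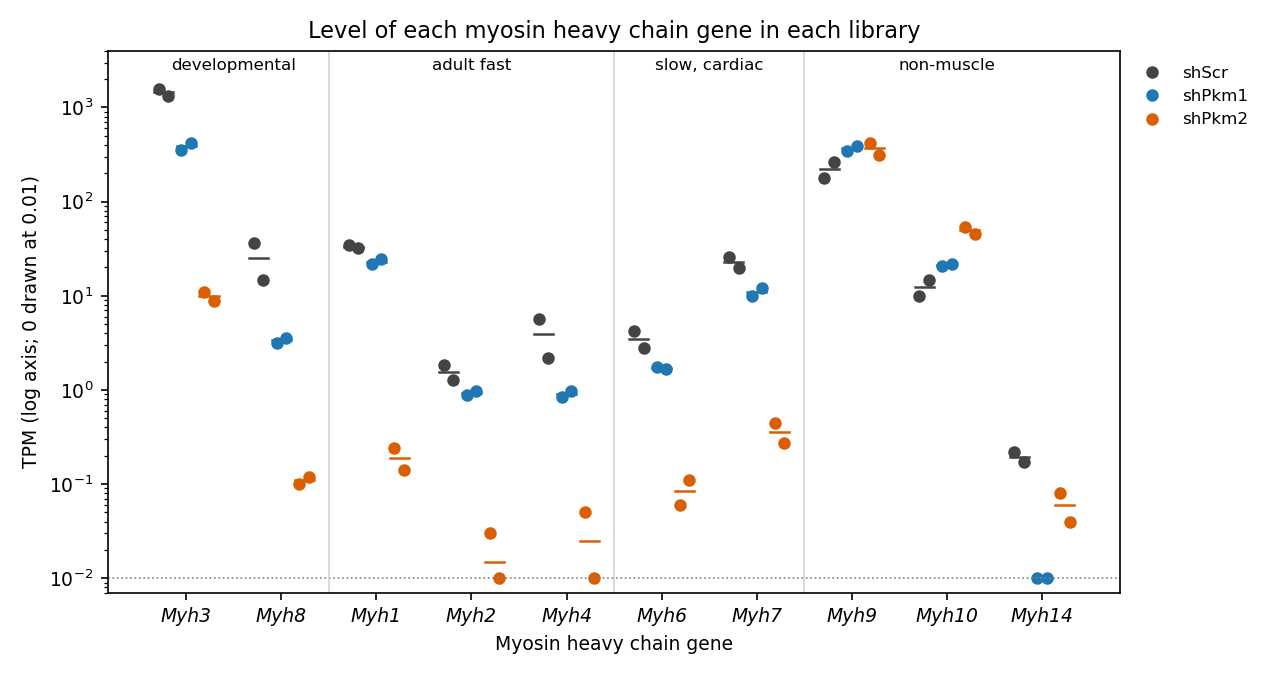
Level of each of the 10 genes in TPM (log axis) in each library. Points are libraries, short bars are the mean of 2 libraries, and values of 0 are drawn at 0.01; the 7 sarcomeric genes step down from shScr to shPkm1 to shPkm2, while Myh10 is highest in shPkm2.

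All 7 sarcomeric heavy chains were lower in shPkm1 than in shScr and lower again in the shPkm2-labelled libraries. Levels below are TPM as deposited by the authors, which are per length and can be compared between genes. Fold changes come from estimated counts scaled to library size, tested with edgeR's quasi-likelihood test over 12643 genes and called at an adjusted p under 0.05. The comparisons of shPkm1 and of shPkm2 with shScr share the same control libraries.

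Against shScr, shPkm1 had 8 of the 10 genes lower and 1 higher, while 63.1% of all tested genes were called (31.4% lower, 31.8% higher). Counts of members are read against those shares. The members' median log2 fold change was -1.44, beside -0.0 over all tested genes. Of the 8, Myh14 passed the filter only through the group where it was high, here and in the comparison that follows, so its call adds no support to the counts. Called and at least 2-fold lower were 6 of the 7 sarcomeric genes, all but Myh1, against 9.41% of all genes.

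The shPkm2-labelled libraries also had 8 of the 10 lower and 1 higher than shScr, with 68.0% of all genes called (34.2% lower, 33.9% higher). The members' median was -6.74, beside 0.007 over all genes. All 7 sarcomeric genes were called and at least 32-fold lower, as were 1.74% of all tested genes.

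Between the Pkm hairpin groups, 7 genes were lower and 2 higher in the shPkm2-labelled libraries than in shPkm1, with 53.0% of all genes called (27.3% lower, 25.7% higher). The median of the 10 was -5.0, beside 0.005 over all genes. All 7 sarcomeric genes were called and at least 16-fold lower here, as were 2.42% of all tested genes. The 3 medians of the members are the same with Myh14, which had no counts in shPkm1, set at its bound.

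**Figure D2:**
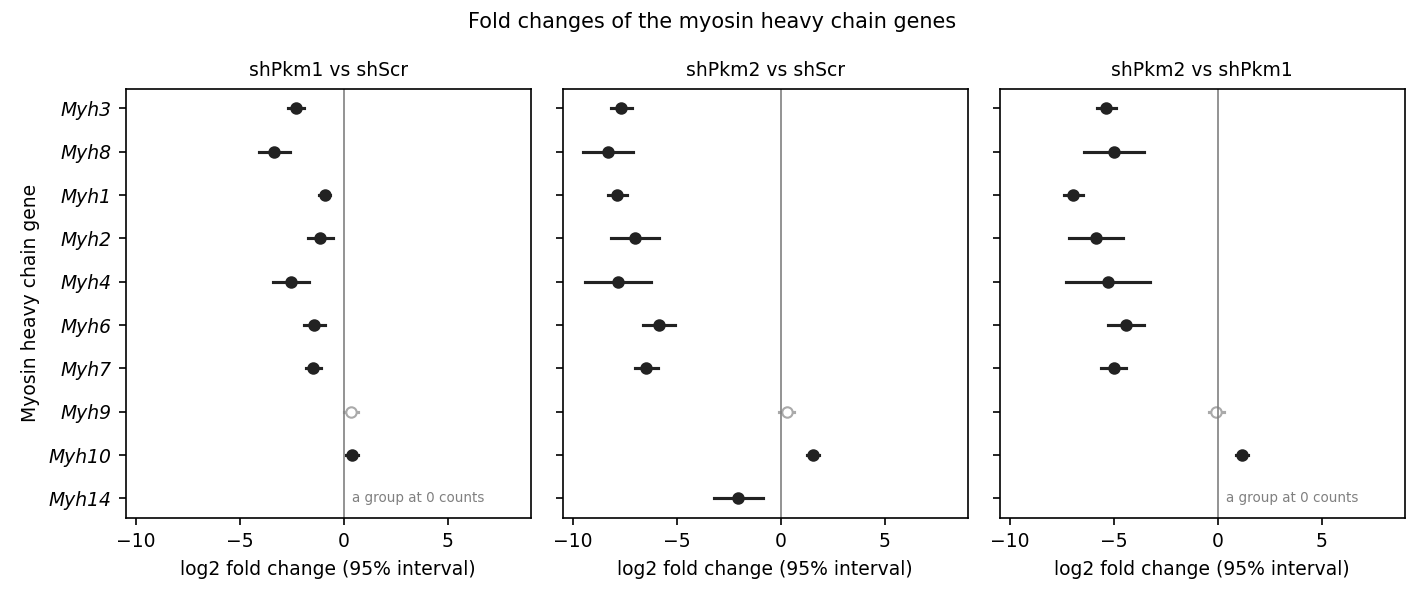
Log2 fold change of each gene in the 3 comparisons, from the edgeR fit. Points are estimates and lines 95% intervals, filled and dark where the adjusted p was under 0.05; no point is drawn for Myh14 where a group had 0 counts. Sarcomeric genes lie left of 0 in all 3 panels.

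Myh3 encodes the embryonic heavy chain and was the most abundant member in shScr. It stood at 1582 and 1318 TPM in shScr, 350.9 and 422.9 in shPkm1, and 10.95 and 8.74 in the shPkm2-labelled libraries. The 3 groups did not overlap, and each step down exceeded the spread within pairs. Against shScr the log2 fold change of Myh3 was -2.30 in shPkm1 (SE 0.178, adjusted p 2.09e-07), a 4.94-fold lower level with a 95% interval of 3.78 to 6.44. For the shPkm2-labelled libraries it was -7.67 (SE 0.229, adjusted p 1.21e-11), or 203.8-fold lower (144.6 to 287.3). Directly compared, the Pkm hairpin groups differed by -5.37 (SE 0.208, adjusted p 2.41e-10). Even so, Myh3 kept 727 and 603 estimated counts in the shPkm2-labelled libraries, far above the floor of 3 counts.

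The table held a pair of Myh3 transcripts. The predicted model XM_006532412.1 took nearly all counts: the curated NM_001099635.1 held 0.120% and 0.443% of them in shScr, 0.522% and 0.933% in shPkm1, and none in the shPkm2-labelled libraries. In a separate edgeR fit of 33435 transcripts the predicted model had log2 fold changes of -2.27 (adjusted p 0.00966), -7.64 (0.00085) and -5.36 (0.00224) in the 3 comparisons. The curated transcript was at -0.73 in shPkm1 (adjusted p 0.633). How reads were divided between them was the authors' counting, so the split is uncertain.

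Myh8, the perinatal chain, was at 36.2 and 14.6 TPM in shScr, 3.15 and 3.59 in shPkm1, and 0.10 and 0.12 in the shPkm2-labelled libraries. The control pair was far apart for Myh8, yet both control libraries were above all others. Its log2 fold change was -3.34 in shPkm1 (SE 0.351, adjusted p 3.34e-06). Without the first shScr library it was -2.42, so that library moved the fold by more than 1.5 times. With the shPkm2-labelled libraries the log2 fold change was -8.33 (SE 0.557, adjusted p 2.44e-08), and -7.41 without the same control library. Myh8 had 7 and 8 counts there, and the ratio of scaled counts was 318.8 with an exact counting interval of 193.0 to 570.1. Between the Pkm hairpin groups it was -4.99 (SE 0.672, adjusted p 3.46e-05).

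Among adult fast chains, Myh1 (type IIx) was the most abundant. It was at 34.3 and 32.1 TPM in shScr, 21.75 and 24.4 in shPkm1, and 0.24 and 0.14 in the shPkm2-labelled libraries. Groups did not overlap. The log2 fold change was -0.92 in shPkm1 (SE 0.122, adjusted p 2.48e-05), or 1.89-fold lower. Against the same controls the shPkm2-labelled libraries were at -7.87 (SE 0.207, adjusted p 5.99e-12), or 233.8-fold lower (171.6 to 318.5). The direct comparison gave -6.95 (SE 0.210, adjusted p 3.33e-11). The curated Myh1 transcript NM_030679.1 gave -0.79 (adjusted p 0.0418), -8.00 (0.000615) and -7.22 (0.0011) in the transcript fit.

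Myh2 (type IIa) was low throughout, at 1.84 and 1.28 TPM in shScr, 0.89 and 0.98 in shPkm1, and 0.03 and 0 in the shPkm2-labelled libraries. The last pair holds 2 estimated counts and 0, so its level is at the floor. In shPkm1 the log2 fold change of Myh2 was -1.13 (SE 0.281, adjusted p 0.00336). That call did not hold without the first shPkm1 library, at -1.02 (adjusted p 0.0514), nor with limma on log2(TPM + 0.1), at -0.66 (adjusted p 0.0759). The ratio of scaled counts put the shPkm2-labelled libraries 145-fold below shScr, with a counting interval of 39.7 to 1204, and 66.8-fold below shPkm1 (18.1 to 557.5). The edgeR fit gave adjusted p 1.04e-07 and 2.98e-06 for these.

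Myh4 (type IIb) was at 5.73 and 2.19 TPM in shScr, 0.84 and 0.97 in shPkm1, and 0.05 and 0 in the shPkm2-labelled libraries. As for Myh8, the first control library was the higher one, and neither control reached down to shPkm1. The log2 fold change in shPkm1 was -2.54 (SE 0.406, adjusted p 0.000124), and -1.57 or -3.13 without the first or the second shScr library. Myh4 had 3 counts and 0 in the shPkm2-labelled libraries, a ratio of 243.7 below shScr (83.0 to 1185) and 42.7 below shPkm1 (14.2 to 210.0). Its adjusted p values in the fit were 6.14e-07 and 0.000371. The log2 fold change of Myh4 there against shScr, -7.83, became -6.87 or -8.42 without the first or the second shScr library. In the direct comparison, at -5.29, fits without 1 library ran from -8.83 to -4.37. The estimates for Myh2 and Myh4 move by more than 1.5 times with the first shPkm2 library left out, which leaves 0 counts: against shScr they become -10.01 and -11.36, and without the second, -6.10 and -6.90.

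Myh7, the slow and beta-cardiac chain, was at 26.1 and 19.6 TPM in shScr, 9.84 and 12.1 in shPkm1, and 0.44 and 0.27 in the shPkm2-labelled libraries. The groups kept the same order without overlap. Its log2 fold changes were -1.46 in shPkm1 (SE 0.176, adjusted p 1.09e-05), -6.47 in the shPkm2-labelled libraries (SE 0.263, adjusted p 2.1e-10) and -5.01 in the direct comparison (SE 0.271, adjusted p 6.1e-09). Myh6, the alpha-cardiac chain, was at 4.21 and 2.79, 1.76 and 1.68, and 0.06 and 0.11 TPM. Its log2 fold changes were -1.42 (SE 0.227, adjusted p 0.000122), -5.86 (SE 0.362, adjusted p 1.11e-08) and -4.43 (SE 0.402, adjusted p 8.92e-07). In the last group Myh6 had 4 and 7 counts. Of the 4 other cardiomyocyte markers in the table, Myl7, Nppb and Ryr2 were at or under the floor in all 3 groups. The fourth, the cardiac troponin I gene Tnni3, had mean CPM of 3.54 in shScr, 0.885 in shPkm1 and 1.04 in the shPkm2-labelled libraries, and fell against shScr in both (-1.99 and -1.76, adjusted p 9.28e-05 and 0.000146). The part of these markers in the falls of Myh6 and Myh7 was not tested.

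Parts of these genes are alike in sequence. Of the 50-base words in the longest coding transcript, 26.7% in Myh1, 26.9% in Myh2, 21.4% in Myh8, 18.9% in Myh4, 22.6% in Myh6 and 22.2% in Myh7 also occur in another Myh gene. For Myh3 it was 4.81%, for Myh9 1.12%, for Myh10 0.943% and for Myh14 0%. With words of 100 bases the shares were 9.73% in Myh1, 9.17% in Myh2, 6.61% in Myh8, 3.85% in Myh4, 11.4% in Myh6 and 11.2% in Myh7, and the read length is not given in the sources used here. Myh2 shares most with Myh1 (19.7% of its words) and Myh6 with Myh7. The low levels of Myh2 and Myh6 beside abundant near copies are therefore uncertain, to a degree that depends on the read length and on the authors' handling of reads that fit both genes.

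The 3 non-muscle chains differed among themselves. Against shScr, Myh10 rose in both Pkm hairpin groups, Myh9 did not pass the test, and Myh14 was lower in both on few or no counts.

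Myh9, the heavy chain of non-muscle myosin II-A, was at 179.4 and 266.6 TPM in shScr, 342.5 and 393.5 in shPkm1, and 422.2 and 314.9 in the shPkm2-labelled libraries. In TPM both control libraries were below all others. On the scale of the test, CPM scaled by TMM factors for library composition, they were 1029 and 1357, 1371 and 1668, and 1622 and 1274, so that shScr and shPkm2 overlap. The log2 fold change was 0.35 in shPkm1 (95% interval -0.0036 to 0.70, adjusted p 0.0779), 0.28 in the shPkm2-labelled libraries (-0.07 to 0.63, adjusted p 0.144) and -0.07 between the Pkm hairpin groups (-0.42 to 0.28, adjusted p 0.740). The call depends on the scaling, the tool and the filter. With edgeR on library totals only Myh9 was higher than shScr by 0.53 (adjusted p 0.0133) and 0.60 (adjusted p 0.00589). With limma on log2(TPM + 1), which changes unit and tool at once, it was higher by 0.74 in each (adjusted p 0.00293 and 0.00267). DESeq2 called it in shPkm1 (0.35, adjusted p 0.0375), as did edgeR with no filter on low counts (0.36, adjusted p 0.0455). Those scalings moved the median of all genes as well, by 0.19 and 0.33 for library totals and by 0.31 and 0.36 for TPM. Without the second shScr library Myh9 was at 0.56 in shPkm1 and 0.50 in the shPkm2-labelled libraries, and without the first at 0.16 and 0.09. A lone control library gives no spread of its own, so no call is read from these fits.

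Myh10, the heavy chain of non-muscle myosin II-B, was at 9.91 and 14.8 TPM in shScr, 20.5 and 21.6 in shPkm1, and 54.1 and 45.1 in the shPkm2-labelled libraries. The 3 groups did not overlap, in the reverse order of the sarcomeric genes. Its log2 fold change in the shPkm2-labelled libraries was 1.56 against shScr (SE 0.133, adjusted p 2.73e-07), or 2.94-fold higher (2.41 to 3.59), and 1.17 against shPkm1 (SE 0.131, adjusted p 6.15e-06). In shPkm1 it was 0.39 (SE 0.132, adjusted p 0.0212). That smaller rise did not hold without the first shScr library, at 0.20 (adjusted p 0.128), or without the second shPkm1 library, at 0.31 (adjusted p 0.157).

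Myh14, the heavy chain of non-muscle myosin II-C, had 17 and 13 estimated counts in shScr, 0 and 0 in shPkm1, and 6 and 3 in the shPkm2-labelled libraries. Set at the floor of 3 counts per library, shPkm1 would be 5.82-fold below shScr, with counting error in shScr left out. The separate edgeR fit gave adjusted p 0.000118. Since Myh14 passed the filter only through shScr, where it was high, its calls against shScr are given as descriptions. The shPkm2-labelled libraries were 4.20-fold below shScr by the ratio of scaled counts (counting interval 1.95 to 10.1, adjusted p 0.00468). That call did not hold with DESeq2 (adjusted p 0.10), with limma on log2(TPM + 1) (0.126) or without the second shPkm2 library (0.0635). Between the Pkm hairpin groups the shPkm2-labelled libraries, with 6 and 3 counts, stood 1.37-fold above the floor, again without counting error. The edgeR call of Myh14 as higher there had adjusted p 0.0110. That one did not hold with limma (adjusted p 0.157 to 0.495) or without the first shPkm2 or either shPkm1 library (adjusted p 0.0707 to 0.0756).

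Fewer calls held in the fit of single transcripts, where the spread is estimated over transcripts and p-values are adjusted over more of them. In shPkm1, Myh2 (-1.10, adjusted p 0.548) and Myh4 (-2.51, adjusted p 0.200), each with 1 transcript and so the same counts, did not pass, nor did the tested transcripts of Myh10 (0.42, adjusted p 0.228) and Myh14 (adjusted p 0.200) or either transcript of Myh6 (adjusted p 0.206 and 0.890). Between the Pkm hairpin groups Myh2 (-5.89, adjusted p 0.0591), Myh4 (-5.30, adjusted p 0.0775) and Myh14 (adjusted p 0.463) did not pass. Against shScr in the shPkm2-labelled libraries Myh14 did not pass (adjusted p 0.370), and each other member called by gene had a transcript that did.

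**Figure D3:**
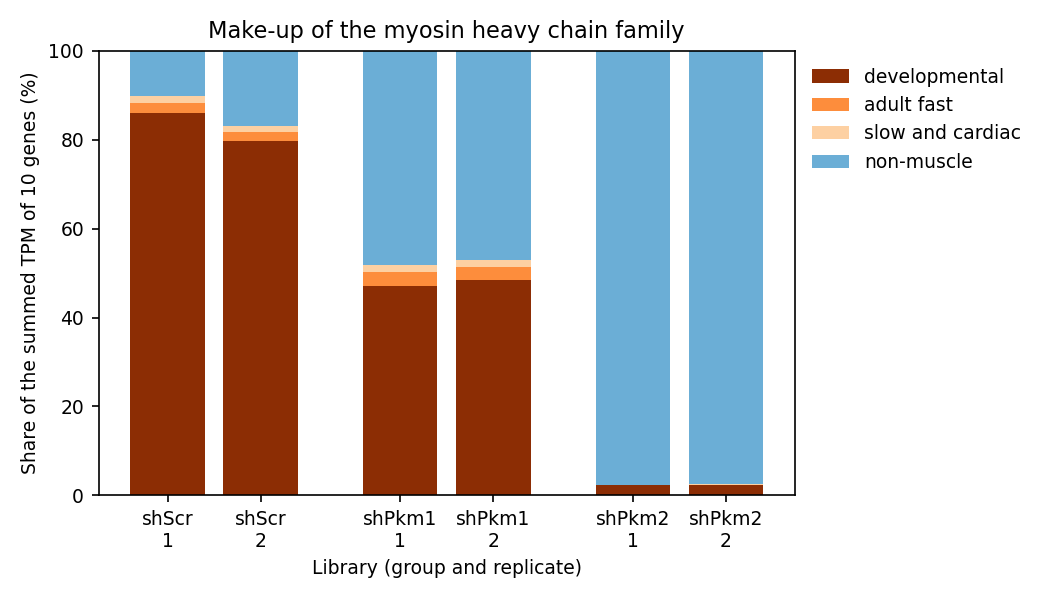
Share of the summed TPM of the 10 genes taken by each class, per library. Bars are libraries; the non-muscle share is 10.1% and 16.8% in shScr, 48.3% and 47.1% in shPkm1, and 97.6% and 97.5% in the shPkm2-labelled libraries.

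The make-up of the family changed with these levels. The 10 genes summed to 1880 and 1672 TPM in shScr, 752.1 and 881.7 in shPkm1, and 488.3 and 369.4 in the shPkm2-labelled libraries. They took 0.768% and 0.660%, 0.281% and 0.337%, and 0.210% and 0.165% of the estimated counts of a library. The developmental chains (Myh3, Myh8) made up 82.9% ± 4.51 of the family's TPM in shScr (SD, n = 2), then 47.7% ± 0.920 in shPkm1 and 2.33% ± 0.0959 in the shPkm2-labelled libraries. The adult fast chains held 2.18% ± 0.0713, 3.06% ± 0.0935 and 0.0517% ± 0.0195. For the slow and cardiac chains it was 1.47% ± 0.193, 1.55% ± 0.0154 and 0.103% ± 0.000339. The non-muscle chains held 13.5% ± 4.78, 47.7% ± 0.842 and 97.5% ± 0.0767. Shares are given as descriptions, with no test. The non-muscle shares of the 3 groups did not overlap.

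The order of levels differed between groups. In shScr, Myh3 came first and Myh9 next, followed by Myh1, Myh8, Myh7 and Myh10. The range of Myh8 (14.6 to 36.2 TPM) overlaps those of the other three. Below them came Myh4 and Myh6, whose ranges overlap. In shPkm1, Myh3 (350.9 to 422.9 TPM) and Myh9 (342.5 to 393.5 TPM) did not differ beyond their spread. Myh1 (21.75 to 24.4) and Myh10 (20.5 to 21.6) were next to each other without overlap, and Myh2 and Myh4 overlapped. In the shPkm2-labelled libraries the order was Myh9, Myh10, Myh3, with every other member below 0.5 TPM.

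Within the 7 sarcomeric chains the proportions moved less than their total, which was 1690 and 1390 TPM in shScr, 389.1 and 466.7 in shPkm1, and 11.9 and 9.38 in the shPkm2-labelled libraries. Myh3 held 94.2% ± 0.846 of it in shScr, 90.4% ± 0.319 in shPkm1 and 92.7% ± 0.656 in the shPkm2-labelled libraries. Myh1 held 2.03% and 2.31% in shScr, 5.59% and 5.23% in shPkm1, and 2.02% and 1.49% in the shPkm2-labelled libraries, so that shPkm1 stood above both. Myh7 held 1.54% and 1.41%, 2.53% and 2.59%, and 3.71% and 2.88%, each group above the one before. In the last group the Myh7 share rests on 29 and 19 counts. Among the non-muscle chains, Myh10 made up 5.24% and 5.27% of Myh9 plus Myh10 in shScr, 5.64% and 5.19% in shPkm1, and 11.4% and 12.5% in the shPkm2-labelled libraries. The first pairs overlap, and the last lies above both.

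**Figure D4:**
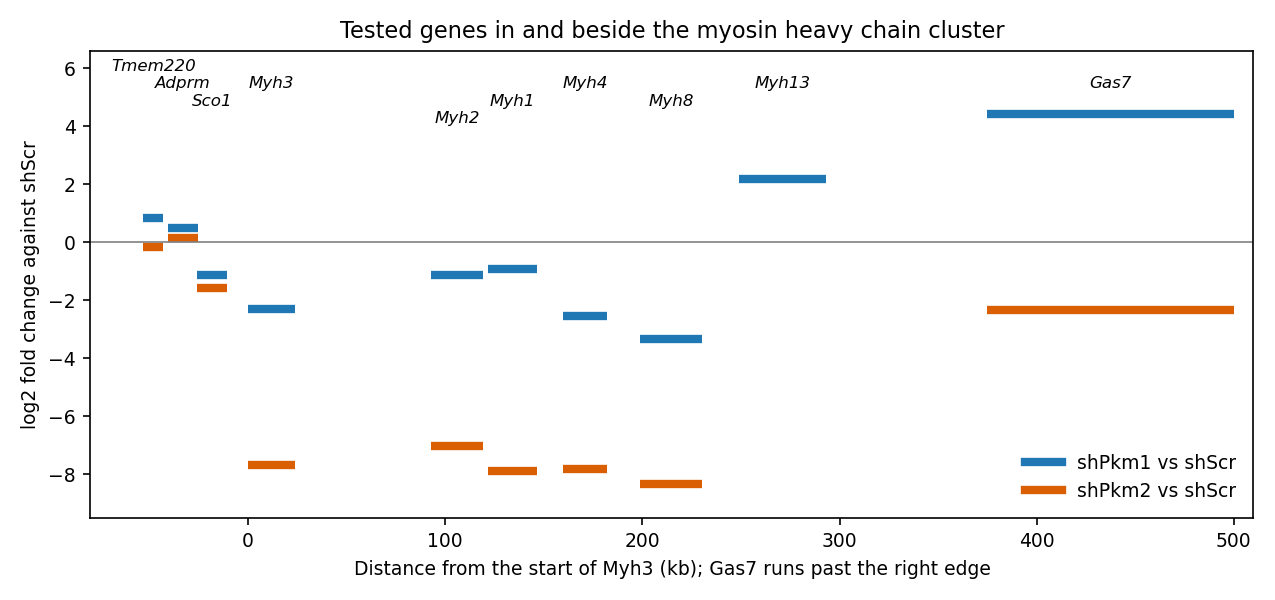
Log2 fold change against shScr of the tested genes in and beside the chromosome 11 cluster, by distance from the start of Myh3 in kb. Bars span each gene, blue for shPkm1 and orange for the shPkm2-labelled libraries; Myh13 has no orange bar because its counts there were 0, and Tmem220, Adprm, Myh13 and Gas7 lie above 0 in shPkm1, Tmem220 without passing the test.

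Other genes in and beside the cluster were measured too. Myh13, the extraocular chain, follows Myh8 on chromosome 11 (67327103 to 67371587). It had 5 and 3 counts in shScr, 19 and 24 in shPkm1 and 0 in both libraries labelled shPkm2. Its log2 fold change in shPkm1 was 2.19 (SE 0.505, adjusted p 0.0024), and the ratio of scaled counts was 4.67 (counting interval 2.17 to 11.5). Myh13 passed the filter on low counts only through shPkm1, where it was high, so these values are a description. The same holds for Gas7 below. For Myh13 in the shPkm2-labelled libraries, a level at the floor would be 1.71-fold below shScr and 7.83-fold below shPkm1, without counting error. The separate edgeR fit gave adjusted p 0.00457 and 3.46e-05. Of the genes within 250 kb of the cluster, Tmem220, Adprm, Sco1 and Gas7 were tested, and all were named after their values were seen. Gas7 had 4 and 5, 109 and 118, and 0 and 2 counts (log2 fold changes 4.42 and -2.35 against shScr, adjusted p 7.32e-07 and 0.0311). Sco1, a mitochondrial copper chaperone just before Myh3, fell in both (-1.14 and -1.58, adjusted p 1.8e-05 and 7.41e-07). Adprm rose in shPkm1 (0.48, adjusted p 0.0243) and did not pass the test in the other group, and Tmem220 did not pass the test in either.

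The slow-type gene Myh7b, outside the set and on chromosome 2 (155611243 to 155634307), had 291 and 189, 63 and 42, and 2 and 2 counts. Its log2 fold changes were -2.41 (SE 0.277, adjusted p 7.15e-06), -7.16 (SE 0.467, adjusted p 1.88e-08) and -4.75 (SE 0.591, adjusted p 1.66e-05). The smooth muscle chain Myh11 had at most 5 counts in a library and was not tested, and Myh15 was listed at 0 in all 6.

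Genes that work with the heavy chains are given by lists written for the purpose. Their counts stand beside those of all tested genes, of which 31.8% were higher and 31.4% lower in shPkm1, 33.9% and 34.2% in the shPkm2-labelled libraries, and 25.7% and 27.3% between the Pkm hairpin groups. Of 6 sarcomeric light chains 3 were tested (Myl1, Myl4 and Mylpf), and all 3 were lower in each comparison. Their medians were -1.91, -7.69 and -5.78, in the order of the comparisons above, beside all-gene medians of -0.0, 0.007 and 0.005. Myl4, the embryonic and atrial essential chain, had log2 fold changes of -2.58 and -7.88 against shScr (adjusted p 1.08e-07 and 1.71e-11), and Mylpf, the fast regulatory chain, of -1.91 and -7.69 (adjusted p 2.32e-06 and 2.96e-11).

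Of 18 thick filament partners and myosin chaperones 17 were tested. None was higher and 16 were lower in shPkm1, 1 was higher and 16 lower in the shPkm2-labelled libraries, and 1 was higher and 14 lower between the Pkm hairpin groups. Medians were -1.80, -6.20 and -3.79. Of those lower than shScr, Mybpc2, fast myosin-binding protein C, passed the filter on low counts only through shScr, where it was high (mean CPM 7.41, beside 0.13 and 0.048), so its calls add no support to these counts and medians. Mybpc1, slow myosin-binding protein C, was at -4.96 in shPkm1 (adjusted p 2.66e-08), and the M-band protein Myom3 at -2.83 (adjusted p 3.99e-09). In the shPkm2-labelled libraries, Mybph, a relative of myosin-binding protein C, was at -7.73 against shScr (adjusted p 4.82e-12), and Unc45b, the chaperone that folds muscle myosin heads, at -7.60 (adjusted p 5.5e-12). The heat shock chaperone Hsp90aa1, which works with Unc45b and with many other clients, was the exception, at 1.18 (adjusted p 1.17e-06).

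Of 15 non-muscle light chains and regulators of non-muscle myosin, all tested, 8 were higher and 3 lower in shPkm1, and 8 were higher and 6 lower in the shPkm2-labelled libraries. Of all tested genes, 63.1% and 68.0% were called in these comparisons. The medians were 0.46 and 0.32. Rock1, a kinase that raises regulatory light chain phosphorylation, was at 1.15 and 1.48 (adjusted p 5.35e-06 and 2.82e-07). Ppp1cb, a catalytic subunit of myosin phosphatase, was at 1.21 in shPkm1 (adjusted p 9.04e-07), S100a4, which binds the tail of non-muscle myosin II-A, at 1.34 in the shPkm2-labelled libraries (adjusted p 7.67e-05). The largest falls were of Myl6b, an essential light chain also made in muscle, at -3.01 and -5.82 (adjusted p 3.67e-07 and 1.4e-09), and in the shPkm2-labelled libraries of Ppp1r12b, a targeting subunit of myosin phosphatase, at -1.99 (adjusted p 3.56e-08). Between the Pkm hairpin groups 5 were higher and 8 lower (median -0.30), beside 25.7% and 27.3% of all genes. The count higher was 1 without the second shPkm1 or either shPkm2 library and 2 without the first shPkm1 library, which also left 4 lower.

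Of 18 transcription factors known at sarcomeric myosin genes 16 were tested. In shPkm1 3 were higher and 9 lower, in the shPkm2-labelled libraries 4 and 9, and between the Pkm hairpin groups 3 and 8, with medians of -0.62, -1.03 and -0.60. The shares of all tested genes called were 63.1%, 68.0% and 53.0%, so 12, 13 and 11 of 16 called are not read as particular to the list. Mef2c, which binds MEF2 sites, was at -2.25 and -6.02 against shScr (adjusted p 0.00111 and 6.64e-06). Myog, the E-box factor of terminal differentiation, was at -5.35 in the shPkm2-labelled libraries (adjusted p 1.05e-11), and Tbx15, a T-box factor of fast fibres, at -1.79 in shPkm1 (adjusted p 4.36e-06). Those that rose against shScr were Eya1, a cofactor of sine oculis homeobox proteins, at 0.86 and 2.26 (adjusted p 0.00134 and 9.95e-08), the calcineurin target Nfatc1 at 0.82 and 0.47 (adjusted p 3.34e-05 and 0.00224), the sine oculis homeobox gene Six4 at 0.42 and 0.49 (adjusted p 0.0122 and 0.00449), and Myf5, the early myoblast factor, at 1.74 in the shPkm2-labelled libraries (adjusted p 9.34e-09).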

How the data were processed

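Each of the 6 libraries is 1 set of columns in a deposited table of 57920 RefSeq transcripts. Per the file headers it holds an estimated count, TPM and FPKM per transcript and library. The estimated counts and TPM as deposited by the authors were used, and the deposited FPKM were not. The 9 columns of the authors' group means were also not used. The submitters' processing notes name HISAT, StringTie, Bowtie, RSEM and DESeq2 and the build mm10. Roles, versions, strandedness and filters are not given in the sources used here.

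Estimated counts were summed per NCBI gene and rounded, giving 17558 genes, of which 17445 had a symbol (the other 113 held at most 0.148% of a library). Symbols, positions and promoters came from RefSeq on GRCm38.p6, the same assembly as mm10. Genes were tested with edgeR 4.0.16 in R 4.3.3 (filterByExpr with a minimum count of 10 and total of 15, TMM, 1 coefficient per group over all 6 libraries, quasi-likelihood F-test, two-sided, Benjamini-Hochberg adjustment over 12643 genes). The biological coefficient of variation was 0.0851. The test was checked on simulated data. These had an equal spread in all groups and few changed genes, so the noisier control pair and the many calls here are not covered. Counting intervals and the floor of 3 counts cover counting error only, since no molecular tags are stated. Intervals are at 95%. Alternatives were other library scalings, filters and tools (DESeq2 1.42.0, limma 3.58.1 on TPM with pseudocounts of 1 and 0.1), glmTreat, fits of the groups compared only, a block for the replicate number, and fits without each library in turn. Motifs were searched on both strands, and words of 50 and 100 bases were compared between GENCODE vM21 transcripts.

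The 10 genes, the gene lists and the markers were chosen with earlier results of these data known. Named are the 10 genes, the 4 other conventional heavy chain genes, Pkm, and per list and comparison at most 2 called rises and 2 called falls with a mean of at least 50 counts and groups that do not overlap. Six4, Nfatc1 in shPkm2, Tnni3, Mybpc2, the genes beside the cluster and the single markers were named outside that rule, after their values were seen. Likeness to Myh3 and Myh9 was the root mean square difference of centred log2 profiles, with the 5 closest genes named.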

Additional observations from a re-analysis of the deposited data

How the results depend on the processing

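Directions of the 10 genes held in all alternatives run except for Myh9 between the Pkm hairpin groups, which was not called in any and changed sign to 0.06 with library totals and in the 2 fits without a library given below. Of 169, 169 and 168 refitted fold changes in the comparisons shPkm1 with shScr, shPkm2 with shScr and shPkm2 with shPkm1, 154, 160 and 156 kept direction and side of the threshold. What depth limits are Myh14 throughout and Myh2, Myh4, Myh6 and Myh8 in the shPkm2-labelled libraries, with 0 to 8 counts per library. With 1 library left out, the lone library of that group is assumed to vary like the other groups. The cause of the changes below was not tested, beyond what fewer genes or libraries imply.

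Myh9 was called higher in shPkm1 with library totals (0.53), no filter (0.36), DESeq2 (0.35) and limma on TPM (0.74 with pseudocount 1 with or without a filter, 0.75 with 0.1). It was called in the shPkm2-labelled libraries with library totals (0.60) and limma (0.74 in all 3 forms). The count of members higher was then 2 in each. Against a minimum log2 change of 1 (glmTreat), calls were lost for Myh1 (-0.92), Myh2 (-1.13), Myh6 (-1.42) and Myh10 (0.39) in shPkm1, Myh14 (-2.04) in shPkm2 against shScr, and Myh10 (1.17) and Myh14 (a fitted 5.07) in the direct comparison. It left 0 members higher and 5 lower in shPkm1, 0 higher in the direct comparison, and 1563, 2182 and 1486 genes called of 12643 instead of 7984, 8602 and 6704. Limma on TPM lost Myh2 in shPkm1 (-0.66 with pseudocount 0.1), Myh14 in shPkm2 against shScr (-0.17 with pseudocount 1; DESeq2 -2.09 also lost it), Myh14 in the direct comparison (0.08, 0.67 and 0.08) and, with no filter, Myh4 in the direct comparison (-0.89). There 1 member was higher with limma, with a mean of at least 50 counts and with only the compared groups. Of all calls, 50.3%, 49.8% and 48.4% were higher, against 65.8%, 69.3% and 61.3% with library totals, which moved the all-gene median by 0.19, 0.33 and 0.14, and 78.1%, 75.7% and 53.8% with limma on log2(TPM + 1).

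Leaving out 1 library gave log2 fold changes against shScr in shPkm1 of -1.44 to -0.75 for Myh2, 0.16 to 0.56 for Myh9 and 0.20 to 0.61 for Myh10. In the shPkm2-labelled libraries it gave 0.09 to 0.50 for Myh9 and -2.59 to -1.64 for Myh14. In the direct comparison Myh9 ran from -0.26 to 0.09 (0.08 without the second shPkm1 and 0.09 without the second shPkm2 library) and Myh14, fitted, from 4.48 to 5.43. Members higher numbered 0 to 2, 1 to 2 and 1 to 2 in the 3 comparisons. Of the non-muscle regulators in the direct comparison 1 to 5 were higher and 4 to 8 lower.

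By estimated counts in place of TPM, the share of the non-muscle class was 52.9% in shPkm1 and 98.0% in shPkm2, of the developmental class 43.0% and 1.90%, of the slow and cardiac class 1.40% and 0.0828%, and of the adult fast class 2.10% in shScr and 2.73% in shPkm1.

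The replicate numbers are shared between groups, but deviations of equal numbers correlated at only 0.007, -0.058 and 0.089 over 10953 genes. With only a pair of libraries per group, this cannot show whether equal numbers were handled together. The libraries were not paired in the main fit. With the replicate number as a block, 7921, 8566 and 6682 genes were called, and no call of the 10 genes changed.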

Other observations

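By root mean square difference of log2 CPM over the 6 libraries, each gene centred on its own mean, the 5 genes closest to Myh3 were Unc45b (0.099), the fast troponin T gene Tnnt3 (0.150), Cacna1s, the voltage sensor of the calcium channel (0.152), Myl4 (0.163) and Trim72, a membrane repair protein (0.181). Within the family, Myh8 (0.496) and Myh7 (0.551) were closest to Myh3, and Myh10 (3.88) was the farthest. The closest to Myh9 were Auts2 (0.049), Ahnak2 (0.064), Rgs12 (0.067), Farp1 (0.079) and Lrrk1 (0.084). These are descriptions over libraries that share groups, with no test.

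Markers of other cell types were measured beside the myosins. Of 5 fibroblast markers, Pdgfra, Dcn and Dpt were tested, and all 3 were higher in shPkm1 than in shScr (2.30, 1.00 and 3.26 on the log2 scale, adjusted p 3.72e-08, 8.83e-05 and 1.31e-05). In the shPkm2-labelled libraries Pdgfra was higher than in shScr (2.46, adjusted p 7.29e-09), Dcn was lower (-1.11, adjusted p 5.65e-05), and Dpt was at -1.59 (adjusted p 0.0520). Dpt passed the filter on low counts only through shPkm1, where it was high. Their summed level with Lum and Thy1 was 14.4 to 22.3 TPM in shScr, 53.0 to 61.8 in shPkm1 and 20.1 to 20.9 in the shPkm2-labelled libraries, with Thy1 at or under the floor in all groups. The 6 smooth muscle markers summed to 7242 to 9601, 5512 to 5763 and 2629 to 2641 TPM, with Myh11 at or under the floor in shScr and shPkm1. Most of that sum was Acta2, which fell in both comparisons with shScr (-1.10 and -2.24, adjusted p 0.000212 and 3.05e-07). Tagln and Cnn1 were higher in shPkm1 (1.22 and 1.64, adjusted p 1.53e-06 and 6.53e-06), where the median of the 5 tested was 0.28. In the shPkm2-labelled libraries Cnn1 was higher (0.50, adjusted p 0.0381) and the 4 others were lower (median -1.14). Osteoblast markers summed to 4.84 to 7.81, 15.7 to 18.9 and 15.7 to 16.7 TPM. Of these, 2 were tested. Runx2 was higher than in shScr in both comparisons (1.26 and 1.27, adjusted p 9.8e-06 and 5.9e-06), and Alpl did not pass (adjusted p 0.129 and 0.309). Ibsp was at or under the floor in all groups. The 4 adipocyte markers in the table summed to at most 1.06 TPM. The part of all these markers in the myosin results was not tested.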
